A study of Mus musculus with 2 samples.

Results

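The Gli transcription factors and the proteins that regulate them inside the cell were examined for binding of the forkhead protein Foxf2, which the mesenchyme of the palate expresses. The genes were Gli1, Gli2, Gli3, Sufu, Kif7, Gpr161, Zic1 and Zic2, and all 8 were found among 22372 protein-coding genes. A peak was counted for a gene if its centre lay inside the gene, or if the gene's transcription start site (TSS) was the nearest protein-coding one and lay within 100 kb. This gave 15 of the 9165 deposited peaks.

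Chromatin came from palatal shelves of mouse embryos at E13.5 (embryonic day) that were homozygous for a 3xFLAG tag on endogenous Foxf2, placed there with CRISPR/Cas9, and 50 pairs of shelves were collected. Which cells of the shelves carried a given peak cannot be told apart in such bulk material. One library was precipitated with anti-FLAG antibody and sequenced (ChIP-seq), and 1 library of the same tagged tissue was input without antibody. No untagged embryos were analysed here. With 1 library of each kind, differences between peaks have no replicate check, and the intervals below cover counting error only. The ChIP library had 26849463 tags, of which 1.48% lay in peaks, and about 19230000 tags for the input library were worked out from the deposited ratios. Peaks were called by the authors with HOMER, whose own score per peak is given here, and each listed peak had to exceed input at least 10-fold, so a high fold is a condition of the list and not a result. ChIP tags are given as counted and scaled to the depth of the input library. A peak list holds no expression values, so the labelled tissue could not be checked by the level of its markers.

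Hedgehog ligands bind the receptor Ptch1, which releases Smo and lets Gli proteins act in the nucleus. Without ligand, Gli3 and much of Gli2 are phosphorylated by protein kinase A and processed into repressors or degraded, with Sufu holding Gli proteins in the cytoplasm and the kinesin Kif7 organising the tip of the primary cilium where they pass. Gpr161, a receptor of the cilium, raises cyclic AMP and thereby favours the repressor forms. Gli1 acts as an activator and is itself a hedgehog target gene, and the Zic proteins carry zinc fingers related to those of the Gli proteins. In the palate, Shh from the epithelium signals to the mesenchyme, where Foxf1 and Foxf2 are expressed.

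Peaks with a forkhead sequence at their centre were found at Gli2, Gli3 and Kif7. The central 200 bp of these 7 peaks are shown because they are the stretches where the factor's own type of site lies, all on the plus strand of mm9. Capitals mark GTAAACA, its variant ATAAACA, the variant GTAAATA or the variant ATAAATA, or their reverse complement where the site is on the minus strand. The Gli2 windows are at chr1:121003208-121003407 (upstream of the gene), chr1:120804515-120804714 and chr1:120787359-120787558 (both in intron 2). The Gli3 windows are at chr13:15521889-15522088 (upstream), chr13:15557949-15558148 (intron 1) and chr13:15596709-15596908 (intron 2), and the Kif7 window is at chr7:86865453-86865652 (upstream).
Gli2 upstream: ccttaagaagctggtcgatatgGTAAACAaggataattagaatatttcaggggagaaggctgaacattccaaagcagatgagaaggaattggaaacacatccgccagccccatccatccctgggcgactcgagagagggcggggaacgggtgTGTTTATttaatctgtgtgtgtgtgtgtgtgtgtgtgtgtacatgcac
Gli2 intron 2, first: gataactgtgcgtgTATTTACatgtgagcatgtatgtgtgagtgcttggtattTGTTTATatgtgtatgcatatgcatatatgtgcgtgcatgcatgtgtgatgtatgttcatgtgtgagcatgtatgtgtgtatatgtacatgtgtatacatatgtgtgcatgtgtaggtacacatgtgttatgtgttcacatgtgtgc
Gli2 intron 2, second: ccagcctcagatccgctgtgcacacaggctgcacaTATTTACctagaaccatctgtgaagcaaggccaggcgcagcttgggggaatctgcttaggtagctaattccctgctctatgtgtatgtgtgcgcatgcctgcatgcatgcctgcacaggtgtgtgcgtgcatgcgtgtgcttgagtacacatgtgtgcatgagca
Gli3 upstream: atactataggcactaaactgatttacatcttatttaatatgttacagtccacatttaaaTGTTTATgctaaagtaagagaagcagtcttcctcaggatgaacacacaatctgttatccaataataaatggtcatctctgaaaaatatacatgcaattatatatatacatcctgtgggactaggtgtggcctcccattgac
Gli3 intron 1: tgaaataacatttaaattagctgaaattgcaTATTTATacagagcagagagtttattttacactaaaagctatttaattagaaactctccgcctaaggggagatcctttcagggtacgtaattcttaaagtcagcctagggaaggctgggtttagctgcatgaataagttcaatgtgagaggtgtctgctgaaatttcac
Gli3 intron 2: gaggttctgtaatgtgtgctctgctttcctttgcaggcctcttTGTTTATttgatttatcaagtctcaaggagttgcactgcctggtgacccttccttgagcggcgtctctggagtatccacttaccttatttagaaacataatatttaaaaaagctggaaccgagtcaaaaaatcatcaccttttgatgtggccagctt
Kif7 upstream: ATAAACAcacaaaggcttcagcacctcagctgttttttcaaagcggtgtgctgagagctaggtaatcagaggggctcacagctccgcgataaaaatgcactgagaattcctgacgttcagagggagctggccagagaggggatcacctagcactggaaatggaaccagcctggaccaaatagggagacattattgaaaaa

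Of the 8 genes, 7 (87.5%) had a peak, against 23.9% of all protein-coding genes. At least 2 peaks were counted for 5 of them, Gli2, Gli3, Sufu, Gpr161 and Zic2, against 6.79% of all genes. At least 3 were counted for Gli3 and Gli2, against 2.48%, and 4 for Gli2, against 1.18% with at least 4. A peak within 1 kb of a TSS was found at 3 genes, Gli1, Gli2 and Zic2, against 10.3% of all genes. Gli1 and Kif7 had 1 peak each and Zic1 had none. Most of the signal belonged to the 2 long Gli genes, since the 7 peaks of Gli2 and Gli3 held 479 (71.8%) of the 667 ChIP tags in the 15 peaks. The typical peak of these genes was close to that of the whole list, with a median of 33 ChIP tags and a score of 26, against 30 ChIP tags and a score of 25 over all 9165 peaks. Of the 15 peaks, 7 had at most 18 ChIP tags, a limit chosen after the values were seen, against 20.9% of all peaks. The same number had scores of 17 to 19, against 29.2% of all peaks.

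**Figure D1:**
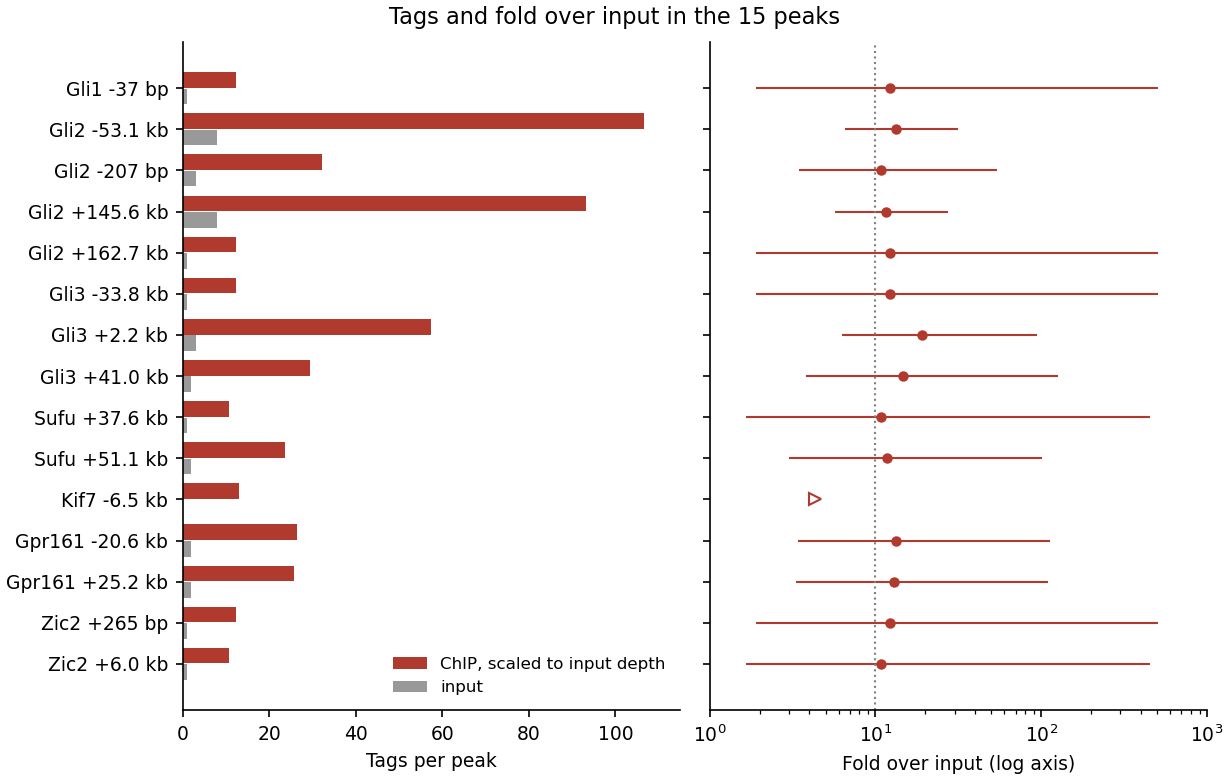
ChIP tags scaled to the input depth (red) and input tags (grey) in each of the 15 peaks, and their fold over input on a log axis with the exact 95% interval. The open triangle is the fold of the Kif7 peak, which had no input tag, with the input set to 3 tags, and not the bound of an interval. The dotted line is the 10-fold limit of peak calling. The peaks of Gli2 53.1 kb upstream and 145.6 kb downstream of the TSS have the most tags, while the intervals of fold overlap throughout.

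The 3 Gli genes differed in the number and the place of their peaks. Gli1 had 1 peak at its start and none in an intron. Gli2 had 4 peaks, one of them upstream, one at the promoter and a pair in intron 2. Gli3 had 3 peaks, one upstream and the others in introns 1 and 2, with none at the promoter. These counts have to be read against gene length, since Gli1 spans 11.7 kb, Gli2 219.5 kb and Gli3 266.8 kb. Among 954 protein-coding genes of 200 kb or longer, 16.6% had at least 4 peaks by the same rule and 24.8% had at least 3. At least 2 peak centres inside the gene, the number that both Gli2 and Gli3 had, were found in 37.8% of these long genes. Per 100 kb of gene, Gli2 held 0.911 and Gli3 held 0.75 peak centres, against 0.389 over all genes of 200 kb or longer. The difference between Gli2 and Gli3 is a single peak, and it was not tested. It depends on the assignment distance, since Gli2 and Gli3 had 3 peaks each within 50 kb and 4 each with no limit on distance. Within 10 kb Gli2 had 3 peaks and Gli3 had 2.

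**Figure D2:**
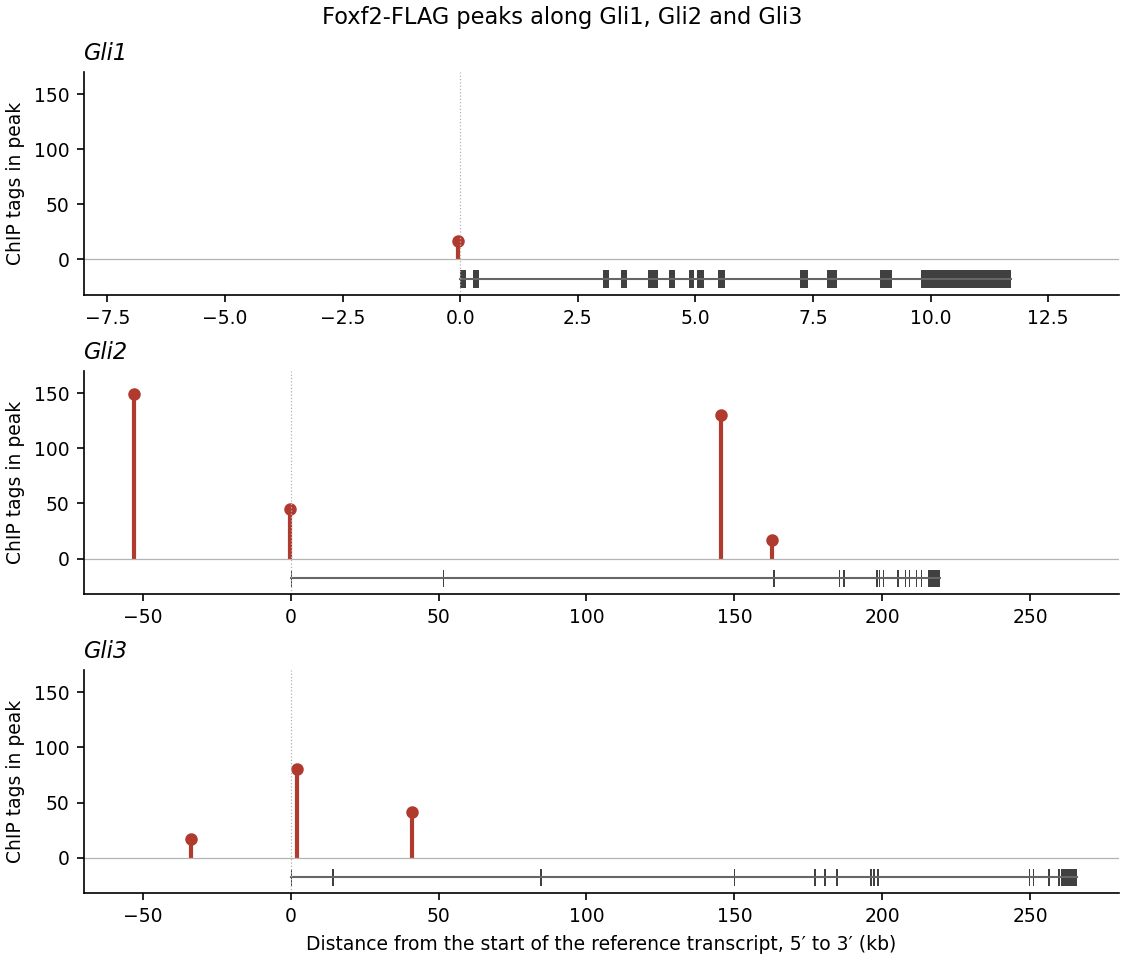
Position of each peak (red) along Gli1, Gli2 and Gli3, as the distance in kb from the start of the reference transcript, with the height showing the number of ChIP tags and exons drawn as dark boxes of a minimum width. The intragenic peaks of Gli3 lie in the first 41.0 kb, while those of Gli2 lie 145.6 and 162.7 kb from the start.

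Gli1, the activator and target gene of the pathway, lies on the minus strand at chr10:126766945-126778645 and has 12 introns, the longest of 2.7 kb. Its peak (chr10:126778432-126778932) was centred 37 bp upstream of the TSS and covered the first exon. It held 17 ChIP tags, or 12.2 at the input depth, against 1 input tag (12.2-fold, 95% interval 1.91 to 509, score 18). This is near the lowest score in the list, 17, and the tag count is low too, since only 20.9% of all peaks had at most 18 ChIP tags. The upper bound of the interval is set by the single input tag. Of protein-coding genes under 25 kb, 14.7% had any peak and 6.33% had one within 1 kb of a TSS. The nearest other peaks lay 39.4 kb upstream, at the promoter of R3hdm2, and 153 kb downstream, nearest to Arhgef25.

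The centre of the Gli1 peak had a GC content of 76.0%, against a median of 71.0% over all peaks within 1 kb of a TSS, and held no forkhead sequence. The GLI recognition sequence TGGGTGGTC was searched on both strands because Gli1 is a target of Gli proteins. It was absent from all 15 regions, and it was present in the central 200 bp of 0.207% of all peaks. With 1 mismatch allowed it was found in the central 200 bp of the Gli1 peak, as in 3.54% of all peaks and 4.33% of those within 1 kb of a TSS, and again 120 bp from the centre of the same peak. Over whole regions, 3 of the 15 peaks held such a match, against 11.0% of all peaks. They were those of the Gli1 and Gli2 promoters and the second one in intron 2 of Gli2. The pair of matches at Gli1 is shown with 15 bases on either side, the first at chr10:126778625-126778663 on the plus strand across the annotated TSS, and the second at chr10:126778783-126778821, printed along the minus strand. Capitals mark the 9 letters of each match, 1 of which differs from the searched sequence.
Gli1 at the TSS: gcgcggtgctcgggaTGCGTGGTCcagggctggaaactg
Gli1 upstream of the TSS: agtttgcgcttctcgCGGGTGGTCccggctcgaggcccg

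Gli2, which encodes the main activator among the Gli proteins, lies on the minus strand at chr1:120730709-120950196. Its peak with the most tags lay 53.1 kb upstream of the TSS, outside any annotated protein-coding gene, at chr1:121002855-121003759. There were 149 ChIP tags, or 106.7 at the input depth, against 8 input tags (13.3-fold, 95% interval 6.599 to 31.5, score 64). By ChIP tags this region ranked at 233 of the 9165 peaks. GTAAACA lay within it in 2 copies, the nearer one 74 bp to the left of the centre, and ATAAACA lay 56 bp to the right.

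The highest-scoring Gli2 peak lay in intron 2 (chr1:120804301-120804928, score 79, rank 370). It held 130 ChIP tags, or 93.1 at the input depth, against 8 input tags (11.6-fold, 95% interval 5.74 to 27.5). Intron 2 is the longest of the gene's 13 introns, 111.6 kb or 50.9% of the gene, and the peak was centred 94.0 kb into it. It was 145.6 kb from the start of the reference transcript and 74.6 kb from an alternative start annotated inside the gene. The region held 4 forkhead sequences, 2 of them in the central 200 bp. Its centre was also rich in TG and CA dinucleotides, as the printed sequence shows. These and their shifted forms GT and AC made up 53.8% of the dinucleotides there, against a median of 24.6% over all peaks, and 0.240% of peaks had as high a share. Whether this repeat has a part in the tag count was not tested.

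The second peak of intron 2 was much weaker (chr1:120787208-120787708). It had 17 ChIP tags, or 12.2 at the input depth, against 1 input tag (12.2-fold, 95% interval 1.91 to 509, score 17). It was centred 479 bp before the end of the intron and had 1 forkhead sequence at its centre. Its share of TG, GT, CA and AC dinucleotides was 37.7%, a share reached by 2.50% of peaks.

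At the Gli2 promoter a peak was centred 207 bp upstream of the TSS (chr1:120950068-120950738). It held 45 ChIP tags, or 32.2 at the input depth, against 3 input tags (10.7-fold, 95% interval 3.45 to 54.1, score 35). No forkhead sequence lay in this region, and its centre had a GC content of 67.0%. Among genes of 200 kb or longer, 19.5% had a peak within 1 kb of a TSS.

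Gli3, which encodes the main repressor of the pathway, lies on the plus strand at chr13:15555068-15821859. Its best peak was in intron 1, at chr13:15557665-15558432, centred 2.2 kb downstream of the TSS. It held 80 ChIP tags, or 57.3 at the input depth, against 3 input tags. The 19.1-fold excess (95% interval 6.31 to 94.6) was the highest of the 14 peaks with an input tag, and the score was 73. Intron 1 spans 13.9 kb, and the peak lay 2.1 kb into it, next to the promoter but outside 1 kb of the TSS. The window had a GC content of 36.5% and held ATAAATA 65 bp to the left of the centre, and ATAAACA lay farther out in the region.

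A second intragenic Gli3 peak lay 41.0 kb from the TSS in intron 2, which is the longest intron of the gene with 70.2 kb (chr13:15596558-15597058). It had 41 ChIP tags, or 29.4 at the input depth, against 2 input tags (14.7-fold, 95% interval 3.81 to 125.3, score 37), and 2 copies of ATAAACA. The third peak, 33.1 kb upstream of the nearest annotated start (chr13:15521738-15522238) and 33.8 kb from that of the reference transcript, had 17 ChIP tags, or 12.2 at the input depth, against 1 input tag (12.2-fold, 95% interval 1.91 to 509, score 17). No peak centre lay in the remaining 84.4% of Gli3 after the intron 2 peak, although introns 3 and 10 span 65.1 and 51.0 kb. In Gli2, by comparison, the intragenic centres lay at 66.3% and 74.1% of the gene's length from its 5′ end, against 1.12% and 15.7% in Gli3.

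One peak beyond the 3′ end of Gli3 was not counted, since it was 296.5 kb from the Gli3 TSS and farther than 100 kb from any protein-coding TSS. It lay 29.7 kb past the gene (chr13:15851210-15851839) and held 60 ChIP tags, or 43.0 at the input depth, against 3 input tags (14.3-fold, 95% interval 4.67 to 71.4, score 50). The nearest start was that of Gm17394, 247 kb away, so with no limit on distance the peak goes to that gene and not to Gli3.

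Summed over its peaks, Gli2 had 341 ChIP tags, or 244.2 at the input depth, against 20 input tags, 12.2-fold in sum (95% interval 7.79 to 20.3). Gli3 had 138 ChIP tags, or 98.9 at the input depth, against 6 input tags, 16.5-fold in sum (95% interval 7.38 to 45.7). These sums run over regions that were each listed only at 10-fold or more, so they describe the listed peaks and not a difference between the genes. ChIP tags per kb of region were 207 and 165 in the best Gli2 peaks, 145.6 kb downstream and 53.1 kb upstream, and 104 in the best Gli3 peak.

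Sufu, which encodes the cytoplasmic inhibitor of the Gli proteins, spans 91.9 kb at chr19:46471386-46563294 and had 2 peaks, both in intron 3. This intron of 24.7 kb is the longest of 11. The better one (chr19:46522259-46522759) held 33 ChIP tags, or 23.6 at the input depth, against 2 input tags (11.8-fold, 95% interval 3.02 to 102, score 31). The other (chr19:46508732-46509232) held 15 ChIP tags, or 10.7 at the input depth, against 1 input tag (10.7-fold, 95% interval 1.65 to 452, score 18). Neither had a forkhead sequence anywhere in the region. At least 2 peak centres inside the gene were found in 3.17% of genes of 25 to 100 kb, and at least 2 peaks by the full rule in 7.25%. A stronger peak with 76 ChIP tags, or 54.4 at the input depth, against 3 input tags lay 14.9 kb past the end of Sufu but 2.1 kb from the TSS of Trim8, and it was not counted for Sufu.

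Kif7, which encodes a kinesin of the cilium tip, spans 16.1 kb at chr7:86842985-86859072 and had 1 peak, 6.5 kb upstream of its TSS (chr7:86865302-86865802). It held 18 ChIP tags, or 12.9 at the input depth, and no input tag. With the input set to 3 tags the fold was 4.30, which is not the bound of an interval. The lower bound of the exact interval was 3.15-fold. The score of this peak was 19. ATAAACA lay 96 bp from the centre, at the very edge of the central window. Downstream of this peak the next one was found 1628 kb past the Kif7 TSS, nearest to Ntrk3.

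Gpr161, the gene of the ciliary receptor, spans 20.3 kb at chr1:167232756-167253061 and had peaks on both sides and none inside. The upstream peak (chr1:167211805-167212477) was 20.6 kb from the TSS. It held 37 ChIP tags, or 26.5 at the input depth, against 2 input tags (13.3-fold, 95% interval 3.42 to 114, score 26). Its centre had a GC content of 77.5% and an observed to expected CpG ratio of 0.98, and its nearest protein-coding TSS was that of Gpr161. The downstream peak (chr1:167257715-167258215) lay 4.9 kb past the gene and had 36 ChIP tags, or 25.8 at the input depth, against 2 input tags (12.9-fold, 95% interval 3.32 to 111, score 36). Both lacked forkhead sequences, and the downstream centre had a GC content of 42.5%. At least 2 peaks were counted for 2.75% of genes under 25 kb.

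Of the Zic genes, Zic2 had peaks and Zic1 had none. Zic2, which spans 4.5 kb at chr14:122874604-122879074, had 2 weak peaks. One was centred 265 bp downstream of the TSS, in the coding part of exon 1 (chr14:122874672-122875172), with 17 ChIP tags, or 12.2 at the input depth, against 1 input tag (12.2-fold, 95% interval 1.91 to 509, score 19) and a GC content of 77.0%. The other lay 1.6 kb past the gene (chr14:122880392-122880892), with 15 ChIP tags, or 10.7 at the input depth, against 1 input tag (10.7-fold, 95% interval 1.65 to 452, score 17). Neither had a forkhead sequence. Further weak peaks flanked the gene, one of 17 ChIP tags, or 12.2 at the input depth, against 1 input tag 4.4 kb past its end, nearest to Gm10837, and one of 16 ChIP tags, or 11.5 at the input depth, against 1 input tag inside Zic5, 10.8 kb upstream.

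Zic1 (chr9:91252896-91260648) had no peak, and its neighbour Zic4 had none either. The nearest peaks were 887 kb upstream, nearest to Plscr1, and 1095 kb downstream, nearest to Tbc1d2b. The peak-free stretch around Zic1 thus spanned 1.98 Mb. Of the 9144 intervals between neighbouring peaks, 1.33% were at least as long, with a median of 131 kb, and 9.69% of protein-coding genes started in such an interval. No peak lay within 500 kb of Zic1, as for 2240 of the 22372 protein-coding genes, whose median was 4 peaks.

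**Figure D3:**
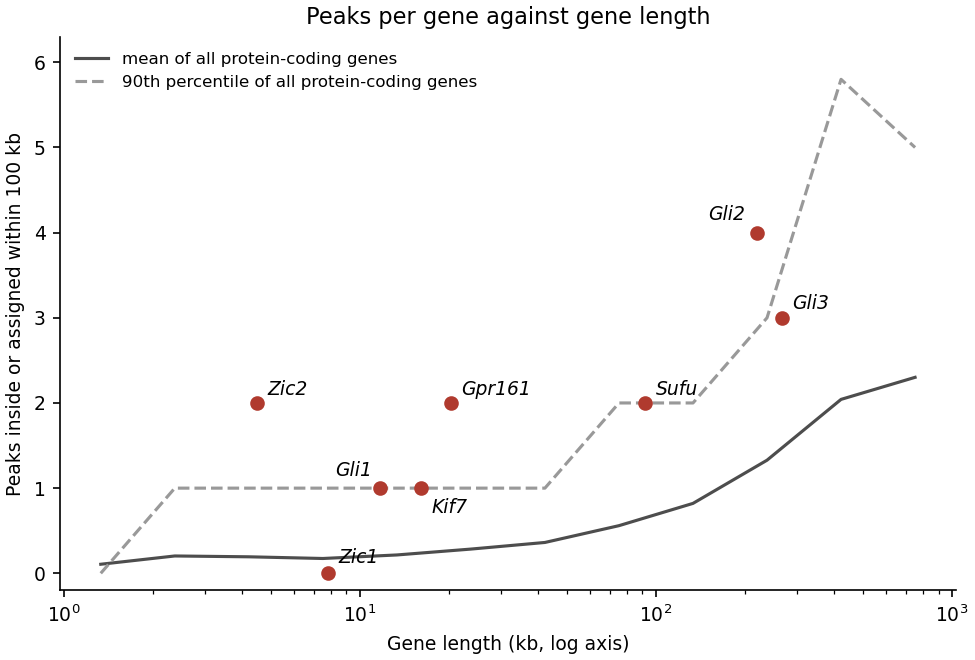
Number of peaks inside or assigned to each of the 8 genes (red) against gene length on a log axis, with the mean (solid line) and the 90th percentile (dashed line) of all protein-coding genes in bins of length. Zic2, Gpr161 and Gli2 lie above the dashed line, Gli1, Gli3, Kif7 and Sufu lie near it, and Zic1 has no peak.

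Forkhead sequences lay mostly at the Gli2 and Gli3 peaks away from promoters. All 6 peaks of Gli2 and Gli3 farther than 1 kb from a TSS held one in the central 200 bp, against 1 of 6 such peaks of Sufu, Kif7, Gpr161 and Zic2. No test was made of this difference. None of the 3 promoter peaks, at Gli1, Gli2 and Zic2, held one, and 9.89% of all promoter peaks did. In all, 7 of 12 peaks farther than 1 kb from a TSS (58.3%) held a forkhead sequence, against 51.5% of all such peaks, and 7 of all 15 (46.7%) did, against 40.8% of all peaks. These shares are near the background. Over whole regions the same 7 peaks held one, against 64.3% of all peaks. The same letters read backwards were found in 3 of the 15 centres, against 18.8% of all peaks. ATAAATA reads the same backwards, so both figures include true forkhead matches and are not a clean control of base composition. These 3 centres all belonged to the 6 peaks of Gli2 and Gli3 farther than 1 kb from a TSS. In the Gli3 intron 1 peak, however, the match was the forkhead site ATAAATA itself. Whether base composition has a part in the difference in forkhead sequences between the genes was not tested. All 3 of the peaks with at least 75 ChIP tags, a limit chosen after the values were seen, had a central forkhead sequence, against 64.1% of all peaks of that size.

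The strict form GTAAACA was present in the central 200 bp of 1 peak, the upstream peak of Gli2, against 15.3% of all peaks. Over whole regions it occurred in 2 copies in each of the 2 strongest Gli2 peaks. Gli3 had none, and its sites were ATAAACA and ATAAATA. The 7 peaks with a central forkhead sequence had a median of 41 ChIP tags, and the 8 without one had 25. Over all peaks these medians were 36.5 and 28.

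**Figure D4:**
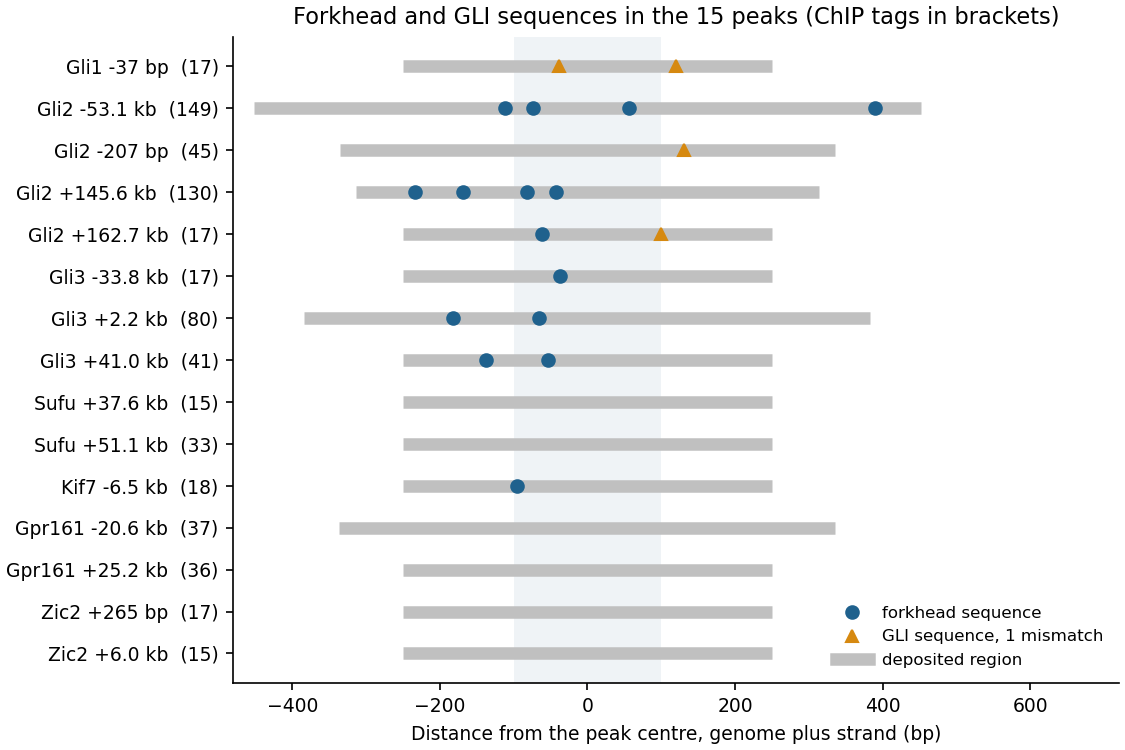
Forkhead sequences (blue circles) and GLI sequences with 1 mismatch (orange triangles) in the 15 peaks, as the distance from the peak centre in bp along the plus strand, with the deposited region in grey and the central 200 bp shaded. The number in brackets is the ChIP tag count. The 2 Gli2 peaks of 149 and 130 tags each hold 4 forkhead sequences, while the peaks of Sufu, Gpr161 and Zic2 hold none.

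Genes that work with the Gli factors were compared by lists. Of 25 genes of Gli processing (kinases, ubiquitin ligases and cyclic AMP signalling), 11 (44.0%) had a peak, against 23.9% of all protein-coding genes. Their median was 0 peaks. The highest-scoring were the casein kinase gene Csnk1d (score 54, at the promoter), the cullin gene Cul1 (49, at the promoter), the casein kinase gene Csnk1e (47, 1.7 kb upstream) and the kinase gene Dyrk2 (42, 13.9 kb upstream). The Csnk1d peak held 77 ChIP tags, or 55.2 at the input depth, against 4 input tags. The Dyrk2 region was larger, with 260 ChIP tags, or 186.2 at the input depth, against 17 input tags. Prkaca, Gsk3b, Csnk1a1, Cul3, Spop and Stk36 were among the 14 genes without a peak. With a median length of 62.4 kb, the genes of this list were longer than all protein-coding genes (15.4 kb), and longer genes had more peaks. Of all genes of 25 to 100 kb, 31.1% had a peak.

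Genes of the cilium were close to the share of all protein-coding genes with a peak (23.9%). Their median length was 50.7 kb, however, and of all genes of 25 to 100 kb 31.1% had a peak. Of 31, 7 (22.6%) had a peak, led by the intraflagellar transport genes Ift140 (score 139), Ift57 (66), Ift52 (26) and Ift80 (20). The Ift140 peak held 141 ChIP tags, or 101 at the input depth, against 8 input tags (12.6-fold, 95% interval 6.24 to 29.8). Its centre lay inside Ift140, but the nearest TSS was that of Tmem204, 2.6 kb away. Evc, Evc2, Tulp3, Arl13b and Ift88 were among the 24 without a peak.

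Ligands and membrane proteins of the pathway had a peak in 12 of 16 cases, against 23.9% of all protein-coding genes, with Hhat, Ptch1, Gpc3 and Hhip at the top. Their median length was 65.6 kb, and of all genes of 25 to 100 kb 31.1% had a peak. The best peak of Hhip, the gene of a ligand-binding inhibitor, held 55 ChIP tags, or 39.4 at the input depth, against 3 input tags (13.1-fold, 95% interval 4.27 to 65.6, score 58), 2.9 kb from its TSS. Gpc3, which encodes a glypican that binds hedgehog ligand, had 4 peaks, the best with 84 ChIP tags, or 60.2 at the input depth, against 5 input tags (score 66).

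Genes regarded as targets of Gli proteins, Gli1 among them, had a peak in 15 of 18 cases (83.3%), against 23.9% of all protein-coding genes and 14.7% of those under 25 kb. Their median was 3 peaks, and their median length was 9.67 kb. Ptch1 and Hhip belong to this list too, which is therefore not separate from the list of membrane proteins. Ptch1, Foxd1, Osr2 and Foxc2 scored highest. Foxd1 and Foxc2, forkhead genes themselves, had best peaks of 89.5 and 136.1 ChIP tags at the input depth, against 7 and 8 input tags. Ccnd1, Nkx2-2 and Hsd11b2 had none.

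Among relatives of the Gli and Zic genes, Glis1, the gene of a Gli-similar zinc finger protein, had 3 peaks, all inside the gene. The best held 75 ChIP tags, or 53.7 at the input depth, against 4 input tags (13.4-fold, 95% interval 5.03 to 50.6, score 77). Glis2 had 2 peaks with scores of at most 23, the better one nearest to the start of Pam16, and Glis3 had 2 with scores of at most 22. Zic5 had 1 peak at a score of 17, and Zic4 had none.

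**Figure D5:**
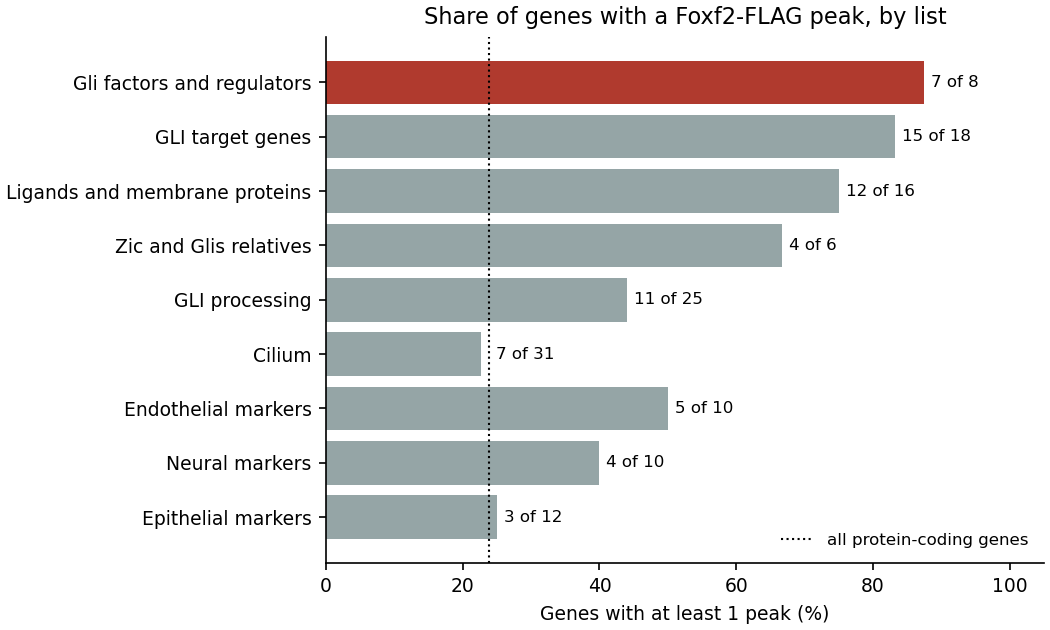
Share of genes with at least 1 peak in each list, in percent, with the number of genes beside the bar and the share of all protein-coding genes as a dotted line at 23.9%. The Gli factors and their regulators and the Gli target genes have the highest shares, and the cilium genes lie at the line.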

How the data were processed

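The submitters' processing notes name mm9 as the build, with HOMER (version not given in the sources used here), Bowtie 1.0.0 and SAMtools 0.1.19 as tools. Per the file headers, the authors ran findPeaks in histone style on the ChIP library with the input library as control. They kept at most 1 tag per position, set a limit of 17 tags, and required a 10-fold excess over input and over the surrounding 10000 bp. There was 1 ChIP and 1 input library, so no test between samples was made.

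The deposited signal columns held ChIP tags per region scaled to 10000000 tags or to the input depth, and unscaled input tags, with 0.5 written for none. Multiplied back by 26849463 total tags, the first column came within 0.134 of whole numbers, and these are the ChIP tags given here. The deposited fold is the ratio of scaled ChIP to input tags. The deposited score described peaks, and the authors' Poisson p-value was not used further.

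Coordinates are 1-based on mm9, with GENCODE vM1 genes and the NCBIM37 sequence. The reference transcript was the one with the longest coding sequence. A fold carries an exact 95% interval conditional on ChIP and input tags (Clopper-Pearson). It covers counting error only, since 1 library of each kind shows no spread between libraries. Motifs were searched on both strands. Python 3.11.15, pandas 2.3.3, scipy 1.17.1 and pysam 0.24.0 were used, and the assignment, interval and motif code was tested on simulated data. Genes were named by a rule: all 8 genes of the subject, the relatives, up to 4 highest-scoring genes of each other list, neighbours of peaks, and the genes most like Gli2 and Gli3. Of the genes that this rule names, 1 is not reported here. Of the list entries, Disp1 and Foxl1 matched no protein-coding gene name, and Foxf1, Map2 and Talpid3 matched under another symbol. The genes, lists and tests were chosen with earlier results of these data known.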

Additional observations from a re-analysis of the deposited data

How the results depend on the processing

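No paired analysis was possible because there was 1 library of each kind, and leaving out a library was not possible for the same reason. Of 48 alternatives, 31 stayed within 1.5 times the reported count. With only the 4582 highest-scoring peaks, 4 of the 8 genes had a peak, 8 peaks in all, and Gli1 had 0, while 13.6% of all protein-coding genes kept a peak. Peaks of at least 20 ChIP tags, an alternative chosen after seeing the data, gave the same numbers of 4, 8 and 0, with 19.1% of all genes. Among peaks at least 15-fold over input, 2 genes had a peak (10.3% of all genes), 2 of the 15 peaks in all (33.5% of all peaks), with 0 for Gli1, 0 for Gli2 and 1 for Gli3. The other was the Kif7 peak, which passed only through the 0.5 written for no input tag. Counting only peak centres inside the gene left 4 genes (16.1% of all genes) and 7 peaks, with 0 for Gli1 and 2 for Gli2. A forkhead sequence lay within 100 bp around the centre in 2 of the 15 peaks, and GTAAACA alone in 1, against 23.9% and 15.3% of all peaks. The input depth limits the fold: 7 of the 15 had at most 1 input tag, as did 49.5% of all peaks, and their fold is known only within wide bounds.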

Other observations

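Genes whose intragenic binding was most like that of Gli2 and Gli3 were chosen by the same number of peak centres inside the gene, 2, and the closest sum of ChIP tags in them, over 1 ChIP library. Another 497 genes had 2 such peaks. For Gli2, with 147 ChIP tags inside the gene, these were Tlk2 (148), 1700106N22Rik (149) and Il17rd (144). For Gli3, with 121 ChIP tags, they were Hlcs (121), Ypel4 (121) and Adamts17 (122).

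Markers of cell types other than the mesenchyme also had peaks, read by the same rule. These were 5 of 10 endothelial genes, with Erg at a score of 101, Esam at 43, Emcn at 30 and Cdh5 at 24. Of 10 neural genes 4 had a peak, with Gap43 at 60, Ncam1 at 34, Snap25 at 30 and Map2 (Mtap2 in the annotation) at 26. Of 12 epithelial genes 3 had one, with Trp63 at 87, Krt8 at 36 and Grhl2 at 18. Cdh1, Epcam, Krt5, Krt14, Pecam1, Kdr, Tek and Tubb3 were among the markers without a peak. All protein-coding genes stood at 23.9%. The median lengths were 44.3 kb for the endothelial, 80.6 kb for the neural and 7.14 kb for the epithelial genes. Of all genes of 25 to 100 kb 31.1% had a peak, and of those under 25 kb 14.7%.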
